A study of Mus musculus with 18 samples.

Results

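A set of 10 genes whose transcription is known to follow the ERK branch of MAPK signalling was described across all libraries of an experiment on mouse ovarian cancer cells. They were taken by gene name and comprise the phosphatases Dusp4, Dusp5 and Dusp6, the Sprouty genes Spry1, Spry2 and Spry4, the Spred genes Spred1 and Spred2, and the ETS factor genes Etv4 and Etv5. All 10 had a row among the 54532 genes of the table. All 10 also passed the filter on low values, a mean of at least 1 FPKM over the 18 libraries, which kept 11084 genes. FPKM are fragments per kilobase of gene, scaled by a size set for each library.

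In ERK signalling, growth factor receptors activate RAS, which activates the kinases RAF, MEK and ERK in turn, and ERK changes transcription in the nucleus. Some of the genes it switches on encode inhibitors of the same chain: DUSP phosphatases remove the activating phosphates from MAP kinases, and Sprouty and SPRED proteins act between the receptor and RAF. Others, such as the PEA3-family ETS factors ETV4 and ETV5, are transcription factors that carry the signal onward. Levels of these transcripts are widely used as a readout of ERK output, and ERK activity itself was not measured here.

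The cells were KPCA.B, a mouse line labelled as high-grade serous ovarian cancer, and polyadenylated RNA was sequenced. Each library came from cells with 1 of 3 hairpins in 1 of 2 conditioned media, which gave 6 groups of 3 libraries. The hairpin shNdufa5_1 (labelled knockdown 1) and the hairpin shNdufa5_2 (labelled knockdown 2) target Ndufa5, which encodes an accessory subunit of mitochondrial complex I, and shControl cells are labelled Ndufa5 wild type. SCM was medium taken from cells made senescent with cisplatin, and PCM was medium from proliferating cells given DMF. The groups were shNdufa5_1 in SCM, shNdufa5_1 in PCM, shNdufa5_2 in SCM, shNdufa5_2 in PCM, shControl in SCM and shControl in PCM. All 6 groups also received an equal part of fresh high-glucose DMEM with 4% serum, 2 ng/mL EGF, a growth factor that activates ERK through its receptor, and an insulin-containing supplement. The sources used here do not give whether a hairpin line is a pool or a single clone, nor the length of exposure. The labels do not tie the 3 libraries of each group to separate cultures. A p-value therefore measures the spread between these libraries, which may be technical.

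Depth, read from the steps of low FPKM values, was 13.8 to 38.7 M fragments per library (M, mega), and the least covered of the 10 genes, Spry4, held at least 513 fragments in every library. The size that scaled the FPKM, read from the same steps, was not always the library's fragment total. In shControl in SCM it was 13.4, 33.6 and 13.6 M against totals of 15.2, 38.7 and 15.4 M. For shControl in PCM it was 15.9, 35.0 and 18.4 M against 15.3, 33.7 and 17.6 M. Within groups, Pearson's r between libraries was 0.979 to 0.990 over tested genes. Ndufa5 in SCM was at 6.46, 6.78 and 6.23 FPKM with shNdufa5_1 and at 14.6, 16.1 and 20.2 FPKM in the libraries labelled shNdufa5_2, against 22.3, 26.2 and 20.9 FPKM in shControl. In PCM it was at 6.23, 6.39 and 6.85 FPKM with shNdufa5_1 and at 18.7, 17.2 and 16.8 FPKM in the libraries labelled shNdufa5_2, against 15.2, 19.0 and 22.1 FPKM in shControl. The target was thus clearly lower with shNdufa5_1 (28.0% of shControl in SCM and 34.6% in PCM), while in the libraries labelled shNdufa5_2 it was 73.4% in SCM (limma adjusted p = 0.0125) and 93.4% in PCM (adjusted p = 0.647). Every direction drawn from those libraries carries that limit, and they are called the libraries labelled shNdufa5_2 throughout. Between media, Ndufa5 was higher in SCM in shControl (log2 difference 0.30, limma adjusted p = 0.0436), with libraries that overlapped. In the libraries labelled shNdufa5_2 the difference between media was -0.05 (adjusted p = 0.794), so the 73.4% also holds the higher shControl level in SCM. Of 6 epithelial markers, Krt7, Krt8, Krt18 and Krt19 were abundant, from 125 FPKM upwards in every library, while Epcam (at most 0.399 FPKM) and Cdh1 (at most 1.37 FPKM) were near 0. Pax8, a Müllerian marker, was at 7.49 to 15.3 FPKM, and Wt1 and Muc16, which also mark serous ovarian cancer, were at 0 in all 18 libraries. Among the immune markers, Cd3e and Itgam were at 0 and Ptprc and Adgre1 at or near 0. Cd68 made up nearly all of their summed level, which was 0.985 to 2.10 FPKM with shNdufa5_1 in SCM, 0.751 to 2.17 in PCM, 7.49 to 10.2 in the libraries labelled shNdufa5_2 in SCM, 6.13 to 8.70 in PCM, 5.92 to 6.96 in shControl in SCM and 2.01 to 2.20 in PCM. The part of Cd68 in the results was not tested. As in any bulk sample, fewer cells with a transcript and less of it per cell cannot be told apart.

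All 10 genes were expressed in every library, between 7.77 FPKM (Spry4) and 299 FPKM (Dusp4). Dusp4 was the most abundant, with a mean of 196 FPKM over the 18 libraries, above 98.1% of the genes tested, and it was followed by Dusp6 at 86.5, Etv4 at 54.4 and Dusp5 at 48.7 FPKM. Spry1 (33.2 FPKM), Spred2 (31.2), Spry2 (30.0), Etv5 (25.5) and Spred1 (21.6) were lower, and Spry4, at 8.92 FPKM, stood above 50.4% of genes. The highest library exceeded the lowest by 2.47 times for Dusp4, the widest range among the 10, and by 1.28 times for Spry4, the narrowest.

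**Figure D1:**
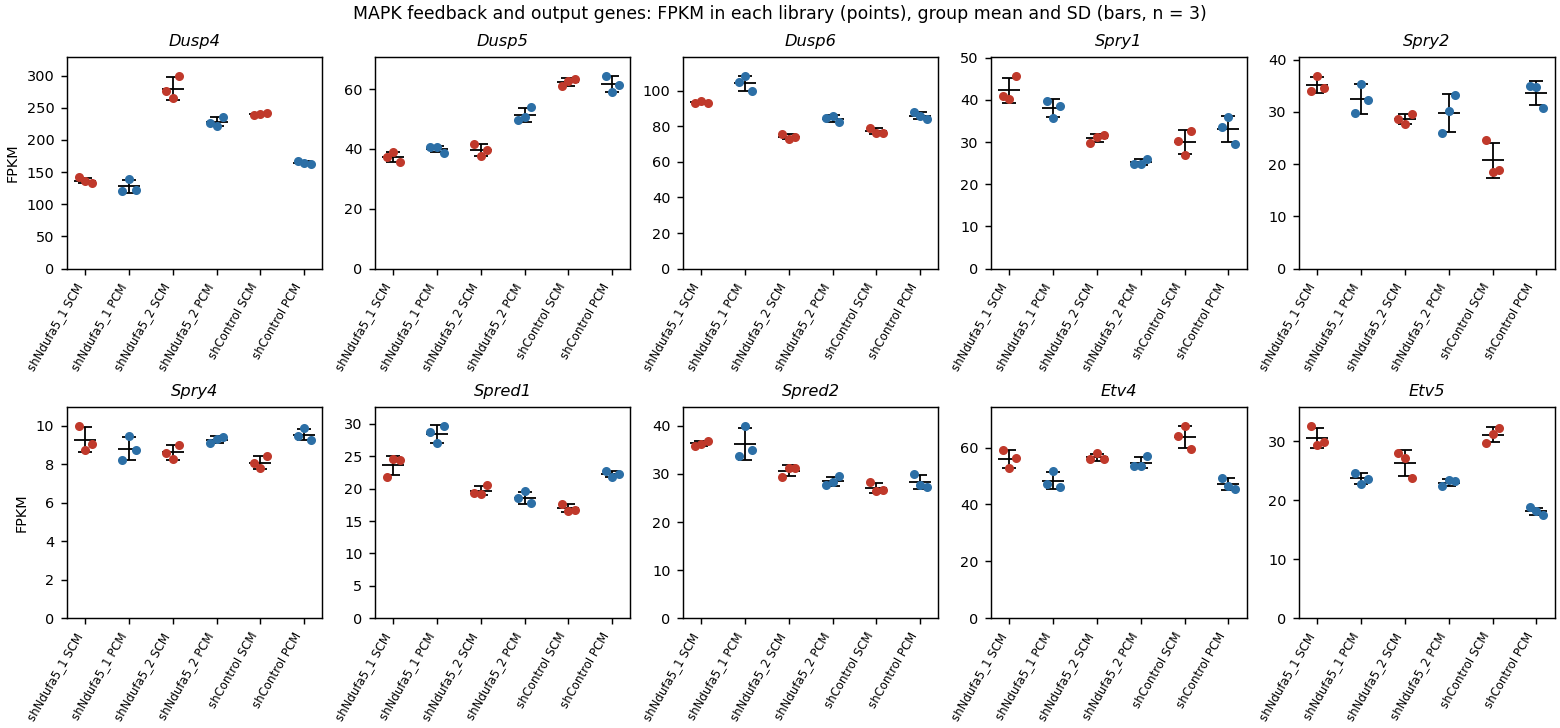
FPKM (linear y axis from 0) of each gene in the 18 libraries, with libraries in SCM as red points and those in PCM as blue points, and bars for the group mean and SD (n = 3). Dusp4 spans 121 to 299 FPKM, Spry2 is lowest in shControl in SCM (18.5 to 24.6 FPKM), and Dusp5 is highest in shControl in both media (59.1 to 64.3 FPKM).

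Each comparison was tested with limma on log2(FPKM + 1) across all genes tested, and a gene was called at a Benjamini-Hochberg adjusted p under 0.05. Between SCM and PCM with shNdufa5_1, 4 of the 10 genes were called, where 42.3% of all genes were: Etv5 and Etv4 rose (22.5% of all genes did) and Spred1 and Dusp6 fell (19.8%). For the libraries labelled shNdufa5_2, SCM changed 5 of 10 against 22.8%: Dusp4, Spry1 and Etv5 rose (11.7%) and Dusp5 and Dusp6 fell (11.1%). In shControl, SCM changed 7 of 10 against 61.9%. Etv5, Dusp4 and Etv4 rose (3 genes, against 31.7% of all genes that rose) and Spry2, Spred1, Spry4 and Dusp6 fell (4 genes, against 30.2% that fell), with signs for Dusp4 and Etv4 that flip under another scaling. Besides the deposited values, 4 other scalings were tried: by each library's recovered fragment total, by its FPKM sum, by quantile normalization, and with its trend over GC content and gene length removed. With fragment totals 3 rose and 7 fell, with quantile normalization 2 and 7, and with the trend removed 2 and 5. Under FPKM-sum scaling 0 rose and 8 fell, where 488 of all genes rose and 7805 fell. The median log2 difference of the 10 genes between SCM and PCM was 0.09 with shNdufa5_1, 0.06 in the libraries labelled shNdufa5_2 and -0.10 in shControl, beside 0.02, 0.00 and 0.00 for all genes tested. With values as deposited the list thus moved in both directions in each genotype. In shControl this mix of directions depended on the scaling. The share of calls there, 7 of 10 as deposited, lay near the 61.9% of all genes.

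Between hairpins and control, shNdufa5_1 in SCM differed from shControl for 9 of 10 genes, against 59.8% of all genes. Spry2, Spry1, Spred1, Spred2, Dusp6 and Spry4 were higher (6 genes, against 28.7%) and Dusp4, Dusp5 and Etv4 lower (3 genes, against 31.1%; the sign for Etv4 flips under other scalings), or 7 higher and 2 lower under the fragment-total scaling. In PCM shNdufa5_1 differed for 7 of 10, against 52.7%, with 5 higher (25.6%), namely Etv5, Spred1, Spred2, Dusp6 and Spry1, and 2 lower (27.1%), Dusp5 and Dusp4. These counts stayed 5 and 2 under the fragment-total scaling. FPKM-sum scaling gave 2 higher and 3 lower, where 27.7% of all called genes were higher. The libraries labelled shNdufa5_2 in SCM differed from shControl for 7 of 10, against 33.9%, with Spry2, Dusp4, Spred1 and Spred2 higher (13.9%) and Dusp5, Etv5 and Etv4 lower (20.0%; signs for both ETS genes flip under FPKM-sum scaling), or 5 higher and 1 lower under the fragment-total scaling. In PCM they differed for 6 of 10, against 35.6%, with Dusp4, Etv5 and Etv4 higher (19.3%; signs for both ETS genes flip under FPKM-sum scaling) and Spry1, Dusp5 and Spred1 lower (16.3%), or 2 higher and 4 lower under fragment-total scaling and 0 higher and 7 lower under FPKM-sum scaling. These 4 comparisons share the shControl libraries within a medium. The median log2 difference from shControl was 0.22 with shNdufa5_1 in SCM, 0.12 in PCM, 0.07 in the libraries labelled shNdufa5_2 in SCM and -0.03 in PCM, beside medians of -0.01 to 0.01 for all genes.

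The hairpin lines also differed from each other. In SCM the libraries labelled shNdufa5_2 differed from shNdufa5_1 for 7 of 10 genes, against 53.9%, with Dusp4 higher (27.3% of all genes) and Dusp6, Spry1, Spry2, Spred1, Spred2 and Etv5 lower (26.5%). In PCM they differed for 7 of 10, against 62.9%, with Dusp4, Dusp5 and Etv4 higher (33.0%; the sign for Etv4 flips under other scalings, and Dusp5, at 0.35, was 0.06 with the trend removed and 0.13 under FPKM-sum scaling, neither called) and Dusp6, Spry1, Spred1 and Spred2 lower (29.9%). The response to SCM itself, SCM minus PCM, differed between shNdufa5_1 and shControl for 4 of 10 genes, against 26.2% of all genes, with 2 differences above 0 (10.7%) and 2 below (15.5%). Between the libraries labelled shNdufa5_2 and shControl it differed for 7 of 10, against 43.0%, with 3 above 0 (18.9%) and 4 below (24.1%). Under the fragment-total scaling these splits were 6 above and 1 below with shNdufa5_1 and 6 above and 3 below in the libraries labelled shNdufa5_2. With quantile normalization they were 4 and 1, and 6 and 1. With the trend removed they were 2 and 2, and 3 and 1. FPKM-sum scaling gave 8 and 0, and 9 and 0, where 98.8% and 98.7% of all called genes lay above 0.

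**Figure D2:**
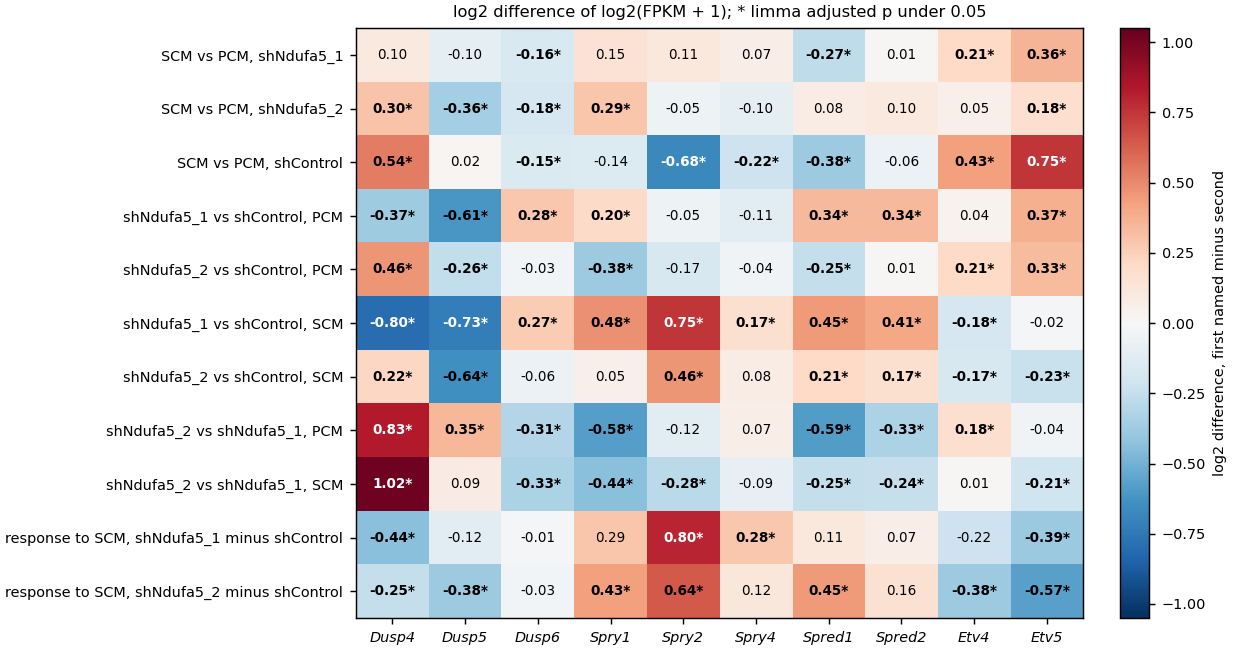
Log2 differences of log2(FPKM + 1) for the 10 genes (columns) in the 11 comparisons (rows), coloured red where the first-named group is higher and blue where it is lower, with bold values and a star for a limma adjusted p under 0.05. Dusp5 is blue in all 4 comparisons of a hairpin with shControl (-0.26 to -0.73), and Dusp4 differs most between the hairpin lines (0.83 in PCM and 1.02 in SCM). The sign of Etv4 against shControl in SCM flips under other scalings of the libraries.

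DUSP4 is a nuclear phosphatase of MAP kinases. With shNdufa5_1 its FPKM was 142, 137 and 133 in SCM and 121, 140 and 123 in PCM, and in the libraries labelled shNdufa5_2 it was 276, 265 and 299 in SCM and 227, 221 and 235 in PCM. The shControl values were 239, 241 and 242 in SCM, against 168, 165 and 162 in PCM. Every shControl library in SCM lay above every one in PCM, shNdufa5_1 in SCM overlapped shNdufa5_1 in PCM, and both shNdufa5_1 groups lay below all other libraries. The difference of Dusp4 between SCM and PCM was 0.10 on the log2 scale with shNdufa5_1 (95% interval 0.00 to 0.21, limma adjusted p = 0.110). Dusp4 rose in SCM by 0.30 in the libraries labelled shNdufa5_2 (SE 0.05, adjusted p = 0.000672; 0.18 with quantile normalization) and by 0.54 in shControl (SE 0.05, adjusted p = 2.15e-07), the shControl value being -0.02 (adjusted p = 0.780) with quantile normalization and -0.07 under FPKM-sum scaling, and 0.25 and 0.29 with the trend removed and with fragment totals. Dusp4 was lower with shNdufa5_1 than in shControl, at -0.80 in SCM and -0.37 in PCM (adjusted p = 2.22e-09 and 1.82e-05). The value in SCM was -0.36 with quantile normalization and -0.38 under FPKM-sum scaling, where those in PCM were -0.32 and -0.50, and all were called. It was higher in the libraries labelled shNdufa5_2, by 0.22 in SCM and 0.46 in PCM (adjusted p = 0.00422 and 7.07e-06), the first being 0.31 to 0.51 under the other scalings and the second 0.10 and not called under FPKM-sum scaling. Between the hairpin lines Dusp4 differed by 1.02 in SCM (SE 0.05, adjusted p = 2.59e-10), or a mean of 280 ± 17.5 FPKM in the libraries labelled shNdufa5_2 and 137 ± 4.14 FPKM with shNdufa5_1 (SD, n = 3 each). The response was smaller than in shControl with shNdufa5_1 (-0.44, adjusted p = 0.000328), a difference of -0.24 with fragment totals, of -0.04 with quantile normalization and of 0.12 under FPKM-sum scaling, the last pair not called. In the libraries labelled shNdufa5_2 it was smaller by the fit on deposited values (-0.25, adjusted p = 0.0118), but the difference was -0.05 with fragment totals, 0.04 without the GC and length trend, 0.20 with quantile normalization and 0.40 under FPKM-sum scaling.

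DUSP5 is a nuclear phosphatase that acts on ERK and holds it there. The annotation puts Dusp5 (ENSMUSG00000034765) at chr19:53529109-53542431 (GRCm38, plus strand), where AC137853.2 overlaps it on the other strand, and the sources used here do not give whether counting used strand. With shNdufa5_1 its FPKM was 37.3, 39.1 and 35.5 in SCM and 40.7, 40.5 and 38.7 in PCM, and in the libraries labelled shNdufa5_2 it was 41.7, 37.8 and 39.6 in SCM and 49.6, 50.6 and 54.0 in PCM. The shControl values were 61.0, 62.7 and 63.5 in SCM and 64.3, 59.1 and 61.5 in PCM. All 12 libraries with a hairpin against Ndufa5 lay below all 6 shControl libraries. Against shControl, Dusp5 was lower with shNdufa5_1, at -0.73 in SCM and -0.61 in PCM (SE 0.05 each, limma adjusted p = 2.44e-09 and 3.19e-08). For the libraries labelled shNdufa5_2 it was lower, at -0.64 in SCM and -0.26 in PCM (SE 0.05 each, adjusted p = 1.87e-07 and 0.000475). These 4 calls held under every other setting tried and without any single library, although FPKM-sum scaling gave -0.31 and -0.35 in SCM and -0.74 and -0.61 in PCM. The difference between SCM and PCM was -0.10 with shNdufa5_1 (adjusted p = 0.0983), but called at -0.15 with fragment totals, -0.17 with quantile normalization and -0.29 with the trend removed. In libraries labelled shNdufa5_2 Dusp5 fell by 0.36 on the log2 scale in SCM (adjusted p = 6.33e-05). SCM did not change Dusp5 detectably in shControl (0.02, 95% interval -0.08 to 0.12), although the value was -0.23 under fragment-total scaling, -0.28 with quantile normalization, -0.32 with the GC and length trend removed and -0.58 under FPKM-sum scaling. The response in the libraries labelled shNdufa5_2 was -0.38 relative to shControl (adjusted p = 0.000253), but -0.19 with fragment totals, -0.07 with the GC and length trend removed or with quantile normalization, neither of them called, and 0.26 under FPKM-sum scaling.

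The promoter of Dusp5 is shown because its level separated the hairpin libraries from shControl in both media. The window, from RefSeq on GRCm38.p6, runs from 250 bases before the start to 50 after it at chr19:53528895-53529194 on the plus strand. Its capitals mark a pair of adjoining CArG boxes, the motif bound by serum response factor, that begin 82 and 72 bases before the start.
Dusp5: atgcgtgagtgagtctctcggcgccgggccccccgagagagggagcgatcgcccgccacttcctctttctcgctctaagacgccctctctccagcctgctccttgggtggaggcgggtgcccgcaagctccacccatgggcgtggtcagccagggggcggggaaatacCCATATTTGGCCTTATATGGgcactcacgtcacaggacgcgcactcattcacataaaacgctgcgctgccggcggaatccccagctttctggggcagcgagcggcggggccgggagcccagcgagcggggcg
A CArG box was present in 1.63% of the 32851 promoter windows of the table and in 1 of the 8 windows of the 7 member genes found there. Both strands were searched. The ETS cores searched were CCGGAA and the longer GGAAGT. The AP-1 motif was TGANTCA. The CRE motif was TGACGTCA. The Sp1 box was GGGCGG. The TATA box was TATAAA. No member window held the AP-1, CRE or TATA letters, which were in 7.81%, 1.79% and 13.6% of all windows. A match is a run of letters and not a measured binding site, and members' windows had 57.0 to 74.0% GC against a median of 52.7% for all windows.

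DUSP6 is a cytoplasmic phosphatase specific for ERK, and its transcript is often used as a readout of ERK activity. With shNdufa5_1 its FPKM was 93.1, 94.4 and 92.8 in SCM, against 105, 108 and 100 in PCM, and in the libraries labelled shNdufa5_2 it was 75.7, 73.0 and 73.7 in SCM, against 84.8, 85.6 and 82.1 in PCM. The shControl values were 79.2, 76.4 and 76.1 in SCM, against 88.0, 85.5 and 84.0 in PCM. In each genotype every SCM library lay below every PCM library, and the shNdufa5_1 libraries lay above all others. Dusp6 fell in SCM by 0.16 on the log2 scale with shNdufa5_1 (SE 0.03, limma adjusted p = 0.00105), by 0.18 in the libraries labelled shNdufa5_2 (SE 0.03, adjusted p = 0.000859) and by 0.15 in shControl (SE 0.03, adjusted p = 0.000716). The falls were less alike under 3 other scalings. The shControl value was -0.40 with fragment totals, -0.45 with quantile normalization and -0.75 under FPKM-sum scaling, where shNdufa5_1 had -0.21, -0.28 and -0.21 and the libraries labelled shNdufa5_2 had -0.24, -0.20 and -0.14, the last not called. The differences between these responses were -0.01 (95% interval -0.10 to 0.09) for shNdufa5_1 and -0.03 (-0.13 to 0.07) for the libraries labelled shNdufa5_2, relative to shControl, although they were 0.19 and 0.16 with fragment totals, 0.17 and 0.25 with quantile normalization and 0.54 and 0.61 under FPKM-sum scaling, all called. Dusp6 was higher with shNdufa5_1 than in shControl by 0.27 in SCM and 0.28 in PCM (adjusted p = 2.32e-06 and 2.8e-06), the first being 0.29 to 0.69 under the other scalings and the second being 0.15 and not called under FPKM-sum scaling. For the libraries labelled shNdufa5_2 the differences were -0.06 in SCM (95% interval -0.13 to 0.01) and -0.03 in PCM (-0.10 to 0.04), neither called. That in SCM was called higher, at 0.10 with quantile normalization and 0.23 under FPKM-sum scaling, and that in PCM was called lower, at -0.15 and -0.38 under the same scalings and -0.12 with fragment totals.

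SPRY1, SPRY2 and SPRY4 are Sprouty proteins, cytoplasmic inhibitors of receptor tyrosine kinase signalling. Spry2 had the largest fall of the 10 genes in SCM. With shNdufa5_1 its FPKM was 33.9, 36.8 and 34.6 in SCM and 29.7, 35.4 and 32.2 in PCM, and in the libraries labelled shNdufa5_2 it was 28.6, 27.7 and 29.6 in SCM and 26.0, 30.1 and 33.2 in PCM. The shControl values were 24.6, 18.5 and 18.9 in SCM, against 35.0, 34.8 and 30.8 in PCM. The 3 shControl libraries in SCM were the lowest of all 18, and within each hairpin line the SCM and PCM libraries overlapped. The log2 difference of Spry2 between SCM and PCM was 0.11 with shNdufa5_1 (95% interval -0.10 to 0.33) and -0.05 in the libraries labelled shNdufa5_2 (-0.26 to 0.17). In shControl Spry2 fell by 0.68 on the log2 scale (SE 0.10, limma adjusted p = 2.71e-05), with means of 20.7 ± 3.43 FPKM in SCM and 33.6 ± 2.36 FPKM in PCM (SD, n = 3 each). The response differed from that of shControl by 0.80 with shNdufa5_1 (SE 0.14, adjusted p = 0.000678) and by 0.64 in libraries labelled shNdufa5_2 (SE 0.14, adjusted p = 0.00209). In SCM, Spry2 was higher than in shControl with shNdufa5_1 (0.75, adjusted p = 1.03e-05) and for libraries labelled shNdufa5_2 (0.46, adjusted p = 0.00249). The fall in shControl, both differences in response and both differences in SCM held under every other setting and without any single library. FPKM-sum scaling gave the widest values, -1.27 for the fall, 1.33 and 1.26 for the differences in response and 1.15 and 0.74 in SCM. In PCM the differences from shControl were -0.05 (-0.26 to 0.17) with shNdufa5_1 and -0.17 (-0.39 to 0.04) in the libraries labelled shNdufa5_2, neither called, the second being called at -0.52 under FPKM-sum scaling.

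The promoter of Spry2 is shown because that gene had the difference in response of greatest size among the 10 with values as deposited, for either hairpin. The window lies at chr14:105896770-105897069 on the minus strand of GRCm38.p6, and its capitals mark an ETS core that begins 33 bases after the start.
Spry2: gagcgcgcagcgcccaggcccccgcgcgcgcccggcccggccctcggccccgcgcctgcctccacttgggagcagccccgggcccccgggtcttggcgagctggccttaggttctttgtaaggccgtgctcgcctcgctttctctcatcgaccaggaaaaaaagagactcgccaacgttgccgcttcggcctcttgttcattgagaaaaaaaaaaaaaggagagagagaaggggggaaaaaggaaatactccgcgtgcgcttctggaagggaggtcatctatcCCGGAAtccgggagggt
These letters, CCGGAA, were in 14.9% of all promoter windows and in no other member window.

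Spry1 was at 40.9, 40.3 and 45.6 FPKM in SCM with shNdufa5_1 and at 39.8, 35.7 and 38.6 FPKM in PCM, and in the libraries labelled shNdufa5_2 it was at 29.9, 31.2 and 31.8 FPKM in SCM and at 24.8, 24.7 and 26.0 FPKM in PCM. In shControl it was at 30.3, 26.9 and 32.7 FPKM in SCM and at 33.7, 35.9 and 29.6 FPKM in PCM. The shControl libraries overlapped between media, and the libraries labelled shNdufa5_2 in PCM were the lowest of the 18. The difference between SCM and PCM was 0.15 with shNdufa5_1 (limma adjusted p = 0.121). In the libraries labelled shNdufa5_2 Spry1 rose by 0.29 in SCM (SE 0.07, adjusted p = 0.0106), and in shControl the difference was -0.14 (95% interval -0.30 to 0.02, adjusted p = 0.117). The rise was 0.33 and not called under FPKM-sum scaling, and the shControl value was called, at -0.28 to -0.73, under the 4 other scalings. The response in the libraries labelled shNdufa5_2 exceeded that of shControl by 0.43 (adjusted p = 0.00394), which held under every other setting, and with shNdufa5_1 the difference was 0.29 (adjusted p = 0.0557) as deposited. That value was called under all 4 other scalings, at 0.39 with the trend removed (adjusted p = 0.0132), 0.39 with quantile normalization (0.0215), 0.48 with fragment totals (0.00284) and 0.82 under FPKM-sum scaling (0.000576). Against shControl, Spry1 was higher with shNdufa5_1 by 0.48 in SCM (adjusted p = 3.7e-05; 0.64 to 0.89 under the other scalings) and 0.20 in PCM (adjusted p = 0.0338). The difference in PCM was 0.07 and not called under FPKM-sum scaling, nor called with no filter on low values or with only the groups compared, and did not pass without shControl replicate 1 (0.21, adjusted p = 0.0514), shControl replicate 3 (0.12, 0.178), shNdufa5_1 replicate 1 (0.17, 0.115) or shNdufa5_1 replicate 3 (0.19, 0.0846). Spry1 was lower in the libraries labelled shNdufa5_2 in PCM (-0.38, adjusted p = 0.000957), with 0.05 in SCM (adjusted p = 0.644), and under FPKM-sum scaling these were -0.73 and 0.33, both called. Gm42922, on the other strand, reached at most 0.204 FPKM.

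Spry4, the least abundant of the 10, was at 9.98, 8.72 and 9.06 FPKM in SCM with shNdufa5_1 and at 8.23, 9.43 and 8.73 FPKM in PCM, and in the libraries labelled shNdufa5_2 it was at 8.58, 8.25 and 8.98 FPKM in SCM and at 9.07, 9.31 and 9.41 FPKM in PCM. In shControl it was at 8.04, 7.77 and 8.41 FPKM in SCM and at 9.47, 9.85 and 9.26 FPKM in PCM. SCM libraries lay below PCM libraries in shControl and among those labelled shNdufa5_2. The differences were 0.07 with shNdufa5_1 and -0.10 for libraries labelled shNdufa5_2 (limma adjusted p = 0.364 and 0.236). In shControl Spry4 fell by 0.22 on the log2 scale (SE 0.06, adjusted p = 0.00329), a value of -0.17 with quantile normalization, -0.44 with fragment totals and -0.76 under FPKM-sum scaling. The response differed from shControl by 0.28 with shNdufa5_1 (adjusted p = 0.0147), or 0.23 (adjusted p = 0.0525) with the GC and length trend removed and 0.77 under FPKM-sum scaling. The difference was 0.12 in the libraries labelled shNdufa5_2 (-0.05 to 0.29, adjusted p = 0.239), but called at 0.29 with fragment totals (adjusted p = 0.00647) and 0.70 under FPKM-sum scaling (adjusted p = 3.44e-05). In SCM Spry4 was higher with shNdufa5_1 than in shControl by 0.17 (adjusted p = 0.0127), which did not pass without shNdufa5_1 replicate 1 (0.12, adjusted p = 0.0763) or shControl replicate 2 (0.15, adjusted p = 0.0524), nor with quantile normalization (0.14, adjusted p = 0.0506), and was 0.34 with fragment totals and 0.55 under FPKM-sum scaling. The small genes Gm27369 and Gm27804 lie within Spry4 on the other strand and reached at most 4.59 FPKM.

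SPRED1 and SPRED2 are Sprouty-related proteins, and they recruit neurofibromin, which switches RAS off. Spred1 was at 21.8, 24.6 and 24.4 FPKM in SCM with shNdufa5_1, against 28.8, 27.0 and 29.7 FPKM in PCM, and in the libraries labelled shNdufa5_2 it was at 19.4, 19.2 and 20.5 FPKM in SCM and 18.5, 19.6 and 17.8 FPKM in PCM. In shControl it was at 17.7, 16.5 and 16.7 FPKM in SCM, against 22.7, 21.8 and 22.3 FPKM in PCM. SCM libraries lay below PCM libraries in shControl and with shNdufa5_1, and the media overlapped in the libraries labelled shNdufa5_2. Spred1 fell in SCM by 0.27 on the log2 scale with shNdufa5_1 (SE 0.05, limma adjusted p = 0.000741) and by 0.38 in shControl (SE 0.05, adjusted p = 1.28e-05). For libraries labelled shNdufa5_2 the difference was 0.08 (adjusted p = 0.313). After removal of each library's GC and length trend, these falls were -0.01 with shNdufa5_1 (adjusted p = 0.898) and -0.02 in shControl (adjusted p = 0.801), and the difference in response in the libraries labelled shNdufa5_2, 0.45 as deposited (adjusted p = 0.000145), was 0.08 and no longer called. With fragment totals and under FPKM-sum scaling the shControl fall was instead -0.61 and -0.95, and that difference in response 0.63 and 1.07. Its exons are 41.5% GC and 6784 bases long, against medians of 50.2% and 4187 bases for the genes tested. Against shControl, Spred1 was higher with shNdufa5_1 by 0.45 in SCM and 0.34 in PCM (adjusted p = 1.65e-06 and 4.33e-05). Both were 0.18 and still called with the trend removed, and under FPKM-sum scaling they were 0.85 and 0.22, the second not called. In the libraries labelled shNdufa5_2 it was higher by 0.21 in SCM (adjusted p = 0.00613) and lower, at -0.25 in PCM (adjusted p = 0.00157), and neither call passed with the trend removed (0.04 and -0.04), while FPKM-sum scaling gave 0.48 and -0.59.

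Spred2 was not called between media in any genotype, although in shControl it was under fragment-total scaling (-0.30), quantile normalization (-0.19) and FPKM-sum scaling (-0.65). With shNdufa5_1 it was at 35.9, 36.2 and 36.9 FPKM in SCM and at 33.8, 40.0 and 35.0 FPKM in PCM, a log2 difference of 0.01 (95% interval -0.11 to 0.12). Libraries labelled shNdufa5_2 were at 29.4, 31.3 and 31.3 FPKM in SCM and at 27.8, 28.3 and 29.5 FPKM in PCM, a difference of 0.10 (-0.02 to 0.22). In shControl it was at 28.3, 26.4 and 26.6 FPKM in SCM and at 30.0, 27.8 and 27.3 FPKM in PCM, a difference of -0.06 (-0.18 to 0.06). The 6 shNdufa5_1 libraries were the highest of the 18. Spred2 was higher with shNdufa5_1 than in shControl by 0.41 in SCM and 0.34 in PCM (SE 0.06 each, adjusted p = 1.04e-05 and 8.78e-05), which held under every other setting, with 0.82 and 0.22 under FPKM-sum scaling. For the libraries labelled shNdufa5_2 it was higher in SCM by 0.17 (adjusted p = 0.0253), which did not pass without replicate 2 or 3 of shControl in SCM or replicate 2 or 3 of the libraries labelled shNdufa5_2 in SCM (0.15 to 0.16), nor with no filter on low values, and was 0.22 to 0.45 and called under the 4 other scalings. In PCM the difference was 0.01 (adjusted p = 0.911), or -0.34 and called under FPKM-sum scaling. The response in those libraries differed from shControl by 0.16, not called, but by 0.26 to 0.79, called, under the 4 other scalings.

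ETV4 and ETV5 belong to the PEA3 family of ETS transcription factors. Etv5 had the largest rise of the 10 genes in SCM. With shNdufa5_1 its FPKM was 32.6, 29.4 and 29.9 in SCM, against 24.6, 22.8 and 23.6 in PCM, and in the libraries labelled shNdufa5_2 it was 28.0, 27.2 and 23.8 in SCM, against 22.4, 23.5 and 23.3 in PCM. The shControl values were 29.7, 31.3 and 32.2 in SCM, against 18.8, 18.1 and 17.5 in PCM. Every SCM library lay above every PCM library of its genotype, and the 3 shControl libraries in PCM were the lowest of the 18. Etv5 rose in SCM by 0.36 with shNdufa5_1 (SE 0.06, limma adjusted p = 0.000129), by 0.18 in the libraries labelled shNdufa5_2 (SE 0.06, adjusted p = 0.0308) and by 0.75 in shControl (SE 0.06, adjusted p = 1.9e-08). The order of these rises turned under FPKM-sum scaling, with 0.31 for shNdufa5_1 (called), 0.22 in the libraries labelled shNdufa5_2 and 0.16 in shControl, the last pair not called. The value in the libraries labelled shNdufa5_2 was also not called under fragment-total scaling (0.12), with no filter on low values or with only the groups compared, and did not pass without replicate 1, 2 or 3 of its PCM group or replicate 1 or 2 of its SCM group, with values of 0.14 to 0.19. The response was smaller than in shControl, at -0.39 with shNdufa5_1 (adjusted p = 0.00209) and -0.57 in libraries labelled shNdufa5_2 (adjusted p = 4.58e-05), although both were above 0 under FPKM-sum scaling (0.15 and 0.06), and the first was -0.19 and not called under fragment-total scaling. In PCM Etv5 was higher than in shControl by 0.37 with shNdufa5_1 (adjusted p = 5.56e-05) and by 0.33 in libraries labelled shNdufa5_2 (adjusted p = 0.000327), or 0.24 and -0.01 under FPKM-sum scaling. In SCM the difference was -0.02 with shNdufa5_1 (-0.14 to 0.10), but called at 0.16 with fragment totals and 0.39 under FPKM-sum scaling, and -0.23 in the libraries labelled shNdufa5_2 (adjusted p = 0.00483). The second was 0.05 under FPKM-sum scaling and -0.14 with quantile normalization or fragment totals, none of them called.

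The first of the 2 promoter windows of Etv5 is shown because that gene had the largest rise. It lies at chr16:22439521-22439820 on the minus strand of GRCm38.p6, and the capitals mark 3 GGGCGG boxes that begin 215, 99 and 55 bases before the start.
Etv5: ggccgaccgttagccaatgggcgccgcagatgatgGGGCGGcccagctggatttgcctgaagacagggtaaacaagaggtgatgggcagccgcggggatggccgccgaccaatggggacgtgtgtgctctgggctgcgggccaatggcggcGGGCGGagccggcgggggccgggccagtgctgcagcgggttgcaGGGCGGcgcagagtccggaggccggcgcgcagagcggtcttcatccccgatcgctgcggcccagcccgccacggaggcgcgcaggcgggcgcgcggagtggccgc
This box was in 35.7% of all promoter windows and in 5 of the 8 member windows, those of Dusp5, Etv5, Spred1, Spred2 and Spry1. The ETS letters GGAAGT were in 23.8% of all windows and in those of Dusp5 and Spred2 and the second window of Etv5, which is not shown.

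Etv4 was at 59.0, 52.8 and 56.3 FPKM in SCM with shNdufa5_1 and 47.1, 51.8 and 46.2 FPKM in PCM, and in the libraries labelled shNdufa5_2 it was at 55.8, 58.0 and 55.8 FPKM in SCM and 53.6, 53.5 and 57.0 FPKM in PCM. In shControl it was at 64.0, 67.6 and 59.6 FPKM in SCM, against 49.4, 46.5 and 45.5 FPKM in PCM. The media did not overlap in shControl or with shNdufa5_1 and overlapped in the libraries labelled shNdufa5_2. Etv4 rose in SCM by 0.21 with shNdufa5_1 (limma adjusted p = 0.00635), or 0.02 with the GC and length trend removed and 0.15 under FPKM-sum scaling, neither called. The difference in the libraries labelled shNdufa5_2 was 0.05 (-0.07 to 0.16). Etv4 rose in SCM by 0.43 in shControl (SE 0.05, adjusted p = 6.61e-06), a value of 0.09 (adjusted p = 0.147) without that trend, of 0.16 and 0.18 with quantile normalization and fragment totals and of -0.17 under FPKM-sum scaling. Etv4 has the highest exonic GC content of the 10 genes, 60.2%. The response with shNdufa5_1 differed from that in shControl by -0.22 and was not called, or by 0.33, called, under FPKM-sum scaling. In the libraries labelled shNdufa5_2 it was smaller, at -0.38 (adjusted p = 0.00105), but -0.19 with fragment totals, -0.07 with the trend removed, -0.12 with quantile normalization and 0.26 under FPKM-sum scaling. Against shControl in SCM, Etv4 was lower with shNdufa5_1 (-0.18, adjusted p = 0.00970) and in libraries labelled shNdufa5_2 (-0.17, adjusted p = 0.0274), with signs that flip under other scalings. The first was 0.08 with the trend removed, 0.09 with quantile normalization, 0.01 under fragment-total scaling and 0.23 under FPKM-sum scaling, and the second was 0.00 with the trend removed and 0.12 under FPKM-sum scaling. Without shControl replicate 2 the differences were -0.14 and -0.13 (adjusted p = 0.0554 and 0.125), and removal of shNdufa5_1 replicate 2 also ended the first, while shControl replicate 1 or replicate 1 or 3 of the libraries labelled shNdufa5_2 also ended the second. In PCM Etv4 was higher in the libraries labelled shNdufa5_2 than in shControl by 0.21 (adjusted p = 0.00681), a call lost under all 4 other scalings (0.07 with the trend removed, 0.11 with quantile normalization, 0.12 with fragment totals and -0.14 with FPKM sums), while with shNdufa5_1 the difference was 0.04 (adjusted p = 0.610).

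**Figure D3:**
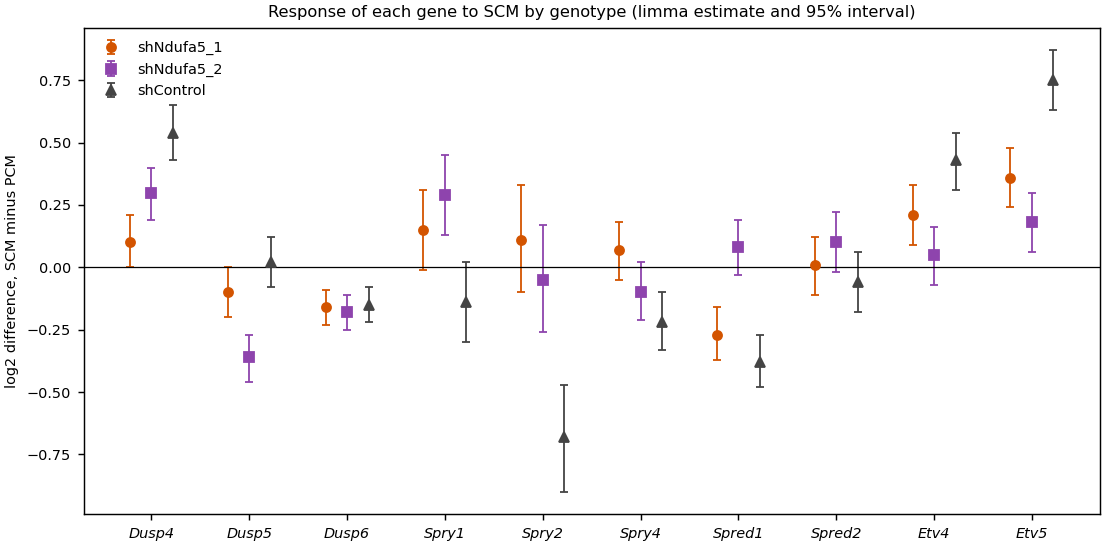
Response to SCM (log2 difference of SCM minus PCM on the y axis) of each gene with shNdufa5_1, in the libraries labelled shNdufa5_2 and in shControl, as limma estimates with 95% intervals (3 libraries per group). Spry2 lies near 0 with both hairpins and at -0.68 in shControl, and Dusp6 lies between -0.15 and -0.18 in all 3 with values as deposited, whereas its shControl value is -0.40 to -0.75 under 3 other scalings. The signs for Dusp4 and Etv4 in shControl flip under at least 1 other scaling.

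With values as deposited the difference between SCM and PCM in shControl ran from -0.68 for Spry2 to 0.75 for Etv5, and Spry2 stayed the lowest and Etv5 the highest of the 10 under each of the 5 scalings plotted. FPKM-sum scaling moved the median of all genes by -0.50 in this comparison and fragment-total scaling moved it by -0.20, and genes higher in SCM then made up 5.88% and 26.4% of all calls. A single gene, Gm23935, held 5.13 to 27.1% of the FPKM sum of a library. In shControl it held 16.3, 21.8 and 16.3% in SCM and 7.74, 8.75 and 5.13% in PCM. Its part in the shift under FPKM-sum scaling was not tested.

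**Figure D4:**
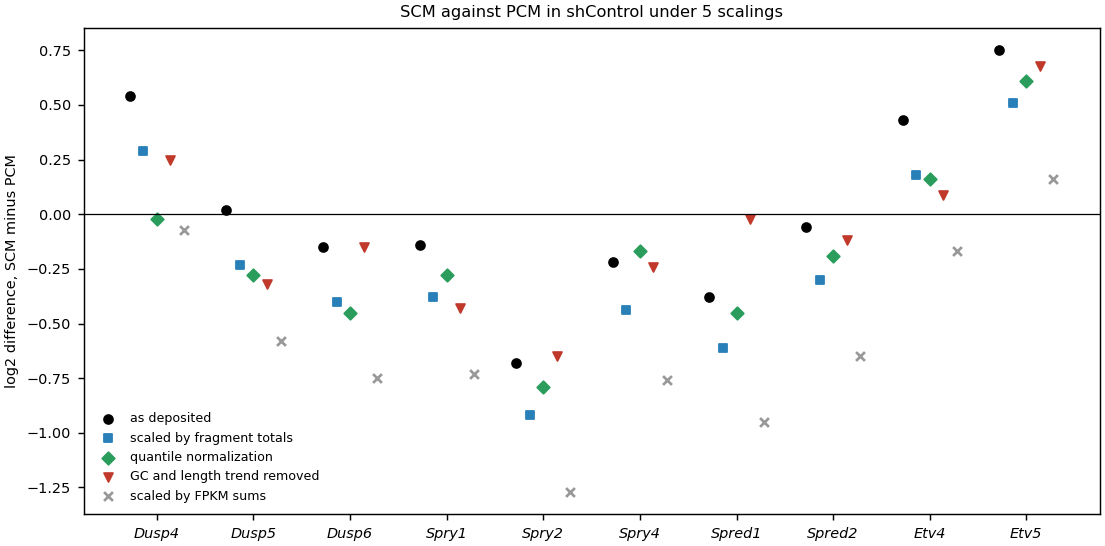
Log2 difference of SCM minus PCM in shControl (y axis) for each gene under 5 scalings of the libraries, with values as deposited as black circles. Spry2 is at or below -0.65 and Etv5 above 0 under all 5, while Dusp4, Dusp5 and Etv4 lie on both sides of 0.

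The wider pathway was read from 4 lists. Over all genes tested, 22.5% rose and 19.8% fell in SCM with shNdufa5_1, 11.7% and 11.1% did in the libraries labelled shNdufa5_2, and 31.7% and 30.2% did in shControl. In shControl, out of 11084 genes, 1939 rose and 5411 fell under fragment-total scaling, and 488 rose and 7805 fell under FPKM-sum scaling, so a list's falls under these scalings stand beside a surplus of falls over all genes. All 20 genes of the ERK cascade, from adaptors to ERK and its kinase targets, were tested. In SCM with shNdufa5_1 2 of the 20 rose and 7 fell (4 and 5 with the GC and length trend removed), and in the libraries labelled shNdufa5_2 3 rose and 4 fell (2 and 6 under fragment-total scaling). In SCM in shControl 4 rose and 10 fell (median log2 difference -0.13), or 4 and 14 under fragment-total scaling. Mapk3, which encodes ERK1, rose by 0.74 (limma adjusted p = 1.93e-08) and Map2k2, which encodes MEK2, by 0.73 (adjusted p = 5.28e-07), while the exchange factor gene Sos2 and the ERK-activated kinase gene Rps6ka3 each fell by 0.61 on the log2 scale (adjusted p = 2.81e-06 and 2.28e-07). Under FPKM-sum scaling Mapk3 and Map2k2 were each at 0.14, and with the trend removed Sos2 and Rps6ka3 were at -0.35 and -0.28. Thus genes for ERK1 and MEK2 and genes further up and down the chain moved in opposite directions.

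Of 13 receptor tyrosine kinase genes 8 were tested; Erbb3, Fgfr2, Fgfr3, Fgfr4 and Pdgfrb were below the filter, with Fgfr2 and Fgfr4 at 0 in every library. In shControl Axl, the most abundant of them, rose by 0.38 in SCM (304 FPKM in SCM and 233 FPKM in PCM on average, limma adjusted p = 1.27e-08), but was at -0.22 with quantile normalization and under FPKM-sum scaling, and Pdgfra rose by 0.30 (adjusted p = 0.0190), or -0.03 under FPKM-sum scaling. Egfr, the receptor for the EGF in the medium, fell by 0.26 on the log2 scale (adjusted p = 0.00339) and Met, the receptor for hepatocyte growth factor, fell by 0.20 (adjusted p = 0.00410). With the trend removed these falls were -0.07 and -0.01, with fragment totals -0.48 and -0.44, and under FPKM-sum scaling -0.79 and -0.77. Of the 8, 2 thus rose and 2 fell, against 1 and 5 under fragment-total scaling and 4 and 1 with the GC and length trend removed. In SCM with shNdufa5_1 3 of the 8 rose and 1 fell (2 and 3 under fragment-total scaling), and in the libraries labelled shNdufa5_2 3 rose and 0 fell. Egfr was lower in PCM with shNdufa5_1 (-0.60, adjusted p = 2.44e-06) and for libraries labelled shNdufa5_2 (-0.42, adjusted p = 0.000222) than in shControl. In SCM the difference with shNdufa5_1 was -0.24, or -0.08 with fragment totals and 0.12 under FPKM-sum scaling. The libraries labelled shNdufa5_2 in SCM averaged 5.82 FPKM against 6.51 FPKM in shControl, a difference not called.

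Of 16 other ERK output genes 14 were tested, Etv1 and Ereg being below the filter. In SCM with shNdufa5_1 5 rose and 6 fell (3 and 8 with quantile normalization), and in the libraries labelled shNdufa5_2 2 rose and 9 fell. In SCM in shControl 3 rose and 10 fell (median -0.37), or 2 and 11 under fragment-total scaling. Egr1, an immediate early transcription factor gene, fell by 1.01 on the log2 scale (20.7 FPKM in SCM and 42.8 FPKM in PCM on average, limma adjusted p = 9.27e-12), Myc by 0.85 (adjusted p = 1.61e-09) and Hbegf, which encodes a ligand of the EGF receptor, by 0.73 (adjusted p = 1.23e-10), while Ier3 rose by 0.77 (adjusted p = 1.22e-10). The rise of Ier3 was 0.52 with fragment totals, 0.36 with the trend removed, 0.17 with quantile normalization and 0.16 under FPKM-sum scaling, where none of the 14 was called higher. With values as deposited, the log2 difference of Egr1 between media was 0.32 for shNdufa5_1, above 0 where shControl fell. Among libraries labelled shNdufa5_2 it was -0.50, a smaller fall than in shControl. The response minus that of shControl was 1.33 for the first line (adjusted p = 1.5e-09) and 0.51 for the second (adjusted p = 3.26e-06). Against shControl in PCM, shNdufa5_1 had Fosl1, an AP-1 subunit gene, lower, at -1.37 (99.3 FPKM with shNdufa5_1 and 258 FPKM in shControl on average, adjusted p = 2.76e-13) and Areg, which encodes amphiregulin, another EGF receptor ligand, higher by 0.90 (adjusted p = 1.74e-08). The libraries labelled shNdufa5_2 in PCM did not share these differences. Fosl1 averaged 260 FPKM there, and Areg 21.3 FPKM against 22.1 FPKM in shControl. In this list as well, single genes moved in opposite directions within a comparison.

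Of 18 other negative regulators 17 were tested, Spry3 being below the filter. In SCM with shNdufa5_1 4 rose and 5 fell (0 and 4 with the GC and length trend removed), and in the libraries labelled shNdufa5_2 2 rose and 3 fell (2 and 1 under FPKM-sum scaling). In SCM in shControl 2 rose and 8 fell (median -0.15), or 1 and 13 under fragment-total scaling. Errfi1, which encodes an inhibitor of the EGF receptor, fell by 1.11 on the log2 scale (69.3 FPKM in SCM and 150 FPKM in PCM on average, limma adjusted p = 8.78e-13), Dusp8 by 0.64 and Dusp2 by 0.51 (adjusted p = 7.21e-06 and 0.000292), both genes of MAP kinase phosphatases, and Pebp1, which encodes an inhibitor of RAF, rose by 0.78 (adjusted p = 7.72e-07). The rise of Pebp1 was 0.53 with fragment totals, 0.34 with the trend removed, 0.13 with quantile normalization and 0.17 under FPKM-sum scaling, not called there. Under FPKM-sum scaling in shControl 0 of these 17 rose and 14 fell, as did 16 of the 20 cascade genes with 1 that rose, 7 of the 8 receptors and 13 of the 14 output genes. With values as deposited, Errfi1 fell less in both hairpin lines than in shControl. Its log2 difference between media was -0.19 for shNdufa5_1 and -0.52 among libraries labelled shNdufa5_2. The response minus that of shControl was 0.92 for the first line (adjusted p = 9.25e-09) and 0.58 for the second (adjusted p = 2.04e-07). In SCM, 10 of the 17 were higher and 4 lower with shNdufa5_1 than in shControl, beside 28.7% and 31.1% of all genes. For libraries labelled shNdufa5_2 4 were higher and 2 lower, beside 13.9% and 20.0%. Under FPKM-sum scaling these counts were 13 and 1, and 8 and 0, where 86.4% and 96.3% of all called genes were higher.

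Among themselves the 10 genes did not follow a single pattern over the 18 libraries, which share their 6 groups. Pearson's r of log2(FPKM + 1) was 0.86 between Dusp6 and Spred1, 0.78 between Etv4 and Etv5 and 0.71 between Spry2 and Spry4. It was -0.91 between Dusp4 and Dusp6, -0.86 between Dusp4 and Spred1 and -0.81 between Dusp5 and Spred2. So with values as deposited the 3 phosphatase genes split, with Dusp4 and Dusp6 opposed. Their SCM differences in shControl, 0.54 and -0.15 as deposited, were -0.02 and -0.45 with quantile normalization. Under FPKM-sum scaling they were -0.07 and -0.75.

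**Figure D5:**
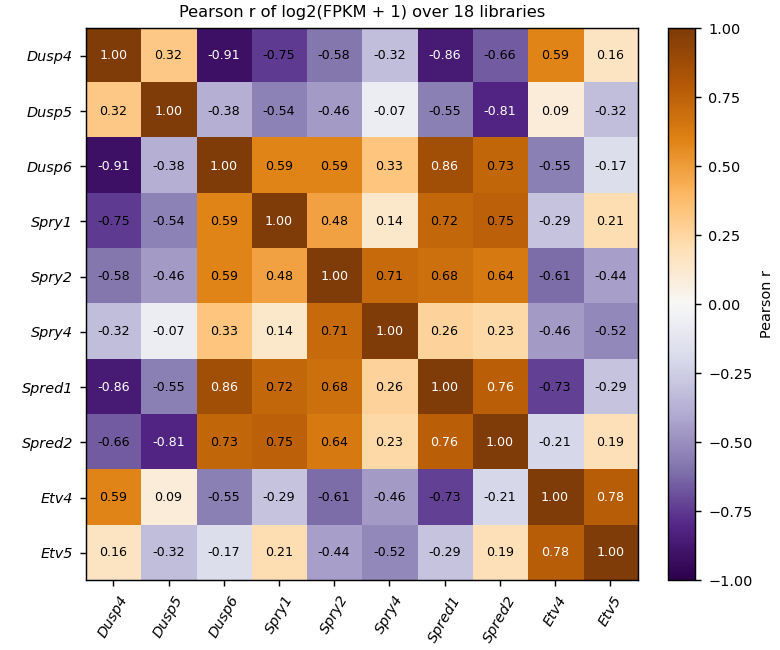
Pearson's r of log2(FPKM + 1) between the 10 genes over 18 libraries with values as deposited, orange for positive and purple for negative values. Dusp4 is negatively correlated with Dusp6 (-0.91) and Spred1 (-0.86), and Etv4 and Etv5 correlate at 0.78.

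For members other than Dusp4, the gene outside the 10 with the most similar pattern, by Pearson's r over the same 18 libraries, was Ppp2ca for Dusp6 (0.984), Hpcal1 for Etv5 (0.982), Cdc42bpa for Spred1 (0.977), Zcchc24 for Spred2 (0.967), Tbc1d9b for Etv4 (0.949), Dhrs9 for Spry1 (0.935), Eif4a-ps4, a gene named as a pseudogene, for Dusp5 (0.929), Cbl for Spry2 (0.911) and Soga1 for Spry4 (0.875). Among these Cbl is also on the list of negative regulators and encodes a ubiquitin ligase of receptor tyrosine kinases. Each was picked as the highest r among all genes tested and is a description of these libraries.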

How the data were processed

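The deposited table held FPKM per gene for 18 libraries of polyadenylated RNA, made, per the labels' protocols, with NEBNext Ultra II. The submitters' processing notes name STAR 2.6.1 and DESeq2 as tools, and GRCm38 and mm10 as builds. The sources used here do not name the counter or its strand setting. The 10 genes and the 4 pathway lists were chosen with earlier results of these data known.

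From these values, genes with a mean of at least 1 FPKM were kept, and log2(FPKM + 1) was fitted with limma 3.58.1 (R 4.3.3; trended variance) over all 6 groups, with 11 contrasts and Benjamini-Hochberg adjustment over all genes tested. Fold changes are on that log2 scale, which understates changes of low genes. Depth was read from FPKM steps, counted as whole within 0.1 fragments for values up to 20 fragments. GENCODE M21 (GRCm38) gave positions for 99.9% of IDs. All 10 members were described, and the gene most like each was the one with the highest Pearson's r; that for Dusp4 is not reported here. On simulated data for SCM against PCM in shControl, with 200 of 11084 genes changed, the fit recovered 9%, 76% and 93% of changes of 0.2, 0.5 and 1.0 on the log2 scale. In the real comparison 61.9% of genes were called, so these recoveries do not describe it. Alternatives were 2 other pseudocounts, no filter, only the groups compared, a replicate block, other scalings and each library left out. A 3 against 3 exact permutation test cannot go below 0.1.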

Additional observations from a re-analysis of the deposited data

Results flagged for a closer look

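The response to SCM differed between genotypes, by limma's test of the difference itself, in 11 of the 20 comparisons made for the 10 genes, 4 with shNdufa5_1 (26.2% of all genes were called) and 7 in the libraries labelled shNdufa5_2 (43.0%). Of these 11, those of Spry2 with both hairpins and of Spry1 in the libraries labelled shNdufa5_2 held under every alternative, and the other 8 were each lost under at least 1. With shNdufa5_1 minus shControl the differences were 0.80 for Spry2, 0.28 for Spry4, -0.39 for Etv5 and -0.44 for Dusp4, in log2 units. In the libraries labelled shNdufa5_2 minus shControl they were 0.64 for Spry2, 0.45 for Spred1, 0.43 for Spry1, -0.25 for Dusp4, -0.38 for Dusp5, -0.38 for Etv4 and -0.57 for Etv5. Both sets of differences share the shControl libraries. Spry2 had no called difference between media with either hairpin, and fell in shControl, where SCM libraries averaged 20.7 FPKM and PCM libraries 33.6 FPKM. Etv5 rose in all 3 genotypes as deposited, by 0.36 with shNdufa5_1, 0.18 in the libraries labelled shNdufa5_2 and 0.75 in shControl. Under FPKM-sum scaling that order turned, with 0.31, 0.22 and 0.16, of which the first alone was called, and the rise in the libraries labelled shNdufa5_2 was lost under 4 alternatives and 5 left-out libraries. Ndufa5 itself was at 73.4% of shControl in SCM and 93.4% in PCM in the libraries labelled shNdufa5_2. Its shControl level was higher in SCM than in PCM (0.30, limma adjusted p = 0.0436).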

How the results depend on the processing

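Of 70 calls among the 10 genes, 37 held under every alternative and every left-out library, and 8 ended when at least 1 single library was left out. Leaving out each library gave 4 to 5 called genes between SCM and PCM with shNdufa5_1, 4 to 5 in the libraries labelled shNdufa5_2 and 7 to 8 in shControl. It gave 7 to 9 in SCM and 6 to 8 in PCM for shNdufa5_1 against shControl, 5 to 6 and 6 to 6 for the libraries labelled shNdufa5_2, 6 to 7 in SCM and 6 to 7 in PCM between the hairpin lines, and 4 to 6 and 7 to 7 for the differences in response. Etv4 with the libraries labelled shNdufa5_2 against shNdufa5_1 in PCM ended without shNdufa5_1 replicate 3 (0.14) or shNdufa5_2 replicate 3 (0.15), and Spry2 between these lines in SCM without shNdufa5_1 replicate 2 or 3 (-0.25 and -0.29) or shNdufa5_2 replicate 1 or 2 (-0.28 and -0.26).

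FPKM-sum scaling called 2 genes between SCM and PCM in the libraries labelled shNdufa5_2 (5 as deposited) and 8 for the difference in response with shNdufa5_1 (4 as deposited), where fragment-total scaling, an alternative chosen after seeing the data, called 7. Removing the GC and length trend called 4 for the difference in response in the libraries labelled shNdufa5_2 (7 as deposited). The cause was not tested. Signs turned as follows where the deposited or the alternative value was called; a further 49 sign changes, called in neither, are not listed, such as Dusp4 between media with shNdufa5_1 (0.10 as deposited, -0.08 with the trend removed and -0.06 with quantile normalization). Between SCM and PCM in shControl, Dusp5 (0.02 as deposited) was -0.32 with the trend removed, -0.28 with quantile normalization, -0.58 with FPKM sums and -0.23 with fragment totals, Dusp4 was -0.02 with quantile normalization and -0.07 with FPKM sums, and Etv4 was -0.17 with FPKM sums. For shNdufa5_1 against shControl in SCM, Etv4 was 0.08 with the trend removed, 0.09 with quantile normalization, 0.23 with FPKM sums and 0.01 with fragment totals, and Etv5 was 0.39 with FPKM sums and 0.16 with fragment totals. For the libraries labelled shNdufa5_2 in SCM, Etv4 was 0.00 with the trend removed and 0.12 with FPKM sums, Etv5 was 0.05 with FPKM sums, and Dusp6 was 0.10 with quantile normalization and 0.23 with FPKM sums. In PCM, with FPKM sums, Spred2 was -0.34, Etv4 -0.14 and Etv5 -0.01. Between the hairpin lines in PCM, Etv4 was -0.07 with the trend removed and -0.05 with FPKM sums. For the difference in response with shNdufa5_1, FPKM sums gave 0.12 for Dusp4, 0.43 for Dusp5, 0.54 for Dusp6, 0.33 for Etv4 and 0.15 for Etv5, and Dusp6 was 0.17 with quantile normalization and 0.19 with fragment totals. In the libraries labelled shNdufa5_2, FPKM sums gave 0.40 for Dusp4, 0.26 for Dusp5, 0.61 for Dusp6, 0.26 for Etv4 and 0.06 for Etv5, Dusp4 was 0.04 with the trend removed and 0.20 with quantile normalization, and Dusp6 was 0.25 with quantile normalization and 0.16 with fragment totals.

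With no filter on low values, 25842 genes were tested and the share called was 7.92 to 26.8% over the 11 comparisons. With FPKM sums it was 8.35% for SCM in the libraries labelled shNdufa5_2, and 58.3% in PCM against shControl, and for the differences in response 63.8% with shNdufa5_1 and 67.0% for the libraries labelled shNdufa5_2, where removing the trend gave 25.1%. Replicate numbers gave no sign of a shared effect: deviations of the 45 same-numbered pairs correlated at -0.0925 to 0.0646. The 90 other pairs had -0.0973 to 0.0958. Whether same-numbered libraries were handled together cannot be told from these values. A replicate block gave the same counts as the fit without it, 4, 5 and 7 for SCM against PCM with shNdufa5_1, in libraries labelled shNdufa5_2 and in shControl, and left all 110 values on their side of the threshold.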
